A study of Mus musculus with 20 samples.

Results

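Chromatin accessibility was followed around 4 genes of the naive pluripotency network, Tfcp2l1, Tbx3, Prdm14 and Nr5a2. The peaks of the 20 ATAC-seq libraries were joined wherever they overlapped, if only by 1 bp, and the joined regions are called elements here. Every element within 20 kb of the annotated span of one of the 4 genes was taken, whatever its signal. This gave 86 of the 335858 regions of the series, with 21 at Tfcp2l1, 16 at Tbx3, 17 at Prdm14 and 32 at Nr5a2. ATAC-seq uses Tn5 transposase to cut and tag accessible DNA, and an element with a peak in a given library is called open there.

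The study asked whether NANOG that is tethered to the BAF chromatin remodeling complex opens the chromatin of fibroblasts more readily than native NANOG. Mouse embryonic fibroblasts (MEFs) with an Oct4-GFP reporter received pMXs retroviruses with Nanog+Oct4 or with NanogN70+Oct4, so exogenous Oct4 was common to both paths. NanogN70 (NanogBiD in the study) is NANOG fused to the N-terminal part of SS18 that binds BRG1, the ATPase of BAF. Each path was sampled on 8 days (days 0, 1 and 3, days 5, 7 and 8, and days 10 and 12) with 1 library a day, beside 1 library of MEFs and 3 of embryonic stem cells (ESCs). Day 0 followed 2 rounds of infection, the cells were then kept in iCD3 induction medium, and the protocol moved them to N2B27+2iL, the medium of the ESCs, after 7 days. The samples are bulk cultures, in which few cells with a fully open element and many cells with a weakly open one cannot be told apart. The source field of the ESC samples names MEFs while their titles name ESCs; promoters of all 12 genes of an ESC marker list had a peak in each of these 3 libraries, against 6 in MEFs. A list of 14 fibroblast promoters separated them less, with 12 in each ESC library and 14 in MEFs. The samples were grouped by title.

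In the naive state, pluripotency is held by a network of transcription factors that activate each other and respond to LIF through STAT3. TFCP2L1 acts downstream of LIF and STAT3, TBX3 is a T-box factor linked to LIF signaling that also acts in limb and heart development, PRDM14 restrains DNA methylation and FGF signaling, and NR5A2 is an orphan nuclear receptor that binds regulatory DNA of Pou5f1. All 4 genes are known from work on mouse ESCs or on reprogramming of somatic cells.

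Elements are named by gene and by the distance of their summit from the gene start, positive downstream. Coordinates are on mm10 (GRCm38), with the GENCODE M21 annotation. Tfcp2l1 lies at chr1:118627945-118685168 on the plus strand, Tbx3 at chr5:119670669-119684724 on the plus strand, Prdm14 at chr1:13113457-13127163 on the minus strand and Nr5a2 at chr1:136842571-136960448 on the minus strand. An element was called a promoter element if it touched the 2 kb around any annotated transcript start of the gene, and distal otherwise. ESC-only elements had no peak in MEFs but had one in 2 or 3 of the ESC libraries.

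The sequences below are those of the promoter element and of the distal ESC-only element with the highest peak score in ESCs at each gene, together with Prdm14 -7.3 kb, the ESC-only element that was open most often in the time course. Each covers up to 201 bases around the highest ESC summit, cut back where an exon began, and is written 5′ to 3′ on the plus strand of the genome. Prdm14 and Nr5a2 are transcribed from the other strand. Capitals mark matches to one of 10 consensus motifs of pluripotency and fibroblast factors. The windows are chr1:118627766-118627944, chr1:118648063-118648263, chr5:119703110-119703310, chr1:13127164-13127327, chr1:13104001-13104201, chr1:13134379-13134579, chr1:136952843-136953043 and chr1:136856274-136856474, in the order of the lines. The summit of the Tbx3 promoter lay in an exon, and no sequence of it is shown.
Tfcp2l1 -0.1 kb: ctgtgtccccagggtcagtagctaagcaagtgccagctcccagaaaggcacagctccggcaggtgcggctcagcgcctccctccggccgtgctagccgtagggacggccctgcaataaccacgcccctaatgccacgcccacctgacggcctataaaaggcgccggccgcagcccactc
Tfcp2l1 +20.2 kb: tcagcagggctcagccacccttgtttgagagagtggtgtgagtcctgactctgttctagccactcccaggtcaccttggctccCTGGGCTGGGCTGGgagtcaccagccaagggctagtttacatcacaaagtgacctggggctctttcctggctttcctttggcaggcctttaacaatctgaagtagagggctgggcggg
Tbx3 +32.5 kb: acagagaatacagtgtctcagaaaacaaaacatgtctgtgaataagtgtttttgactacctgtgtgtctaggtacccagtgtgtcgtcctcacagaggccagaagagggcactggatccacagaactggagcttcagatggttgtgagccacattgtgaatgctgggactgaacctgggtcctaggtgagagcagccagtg
Prdm14 -0.1 kb: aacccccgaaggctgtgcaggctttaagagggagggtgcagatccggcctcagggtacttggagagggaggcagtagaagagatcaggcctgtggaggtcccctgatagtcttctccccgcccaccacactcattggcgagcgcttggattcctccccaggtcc
Prdm14 +23.1 kb: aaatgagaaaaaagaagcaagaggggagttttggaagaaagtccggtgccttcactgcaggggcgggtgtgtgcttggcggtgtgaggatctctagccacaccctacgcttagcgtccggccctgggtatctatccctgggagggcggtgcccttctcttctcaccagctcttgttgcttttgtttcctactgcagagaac
Prdm14 -7.3 kb: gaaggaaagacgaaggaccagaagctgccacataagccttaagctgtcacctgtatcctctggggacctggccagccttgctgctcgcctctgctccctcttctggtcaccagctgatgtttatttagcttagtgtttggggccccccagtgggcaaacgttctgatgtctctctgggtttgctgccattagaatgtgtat
Nr5a2 +7.5 kb: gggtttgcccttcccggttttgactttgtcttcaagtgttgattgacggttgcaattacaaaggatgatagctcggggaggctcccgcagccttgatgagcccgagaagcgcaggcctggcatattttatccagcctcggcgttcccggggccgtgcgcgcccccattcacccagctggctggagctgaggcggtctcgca
Nr5a2 +104.1 kb: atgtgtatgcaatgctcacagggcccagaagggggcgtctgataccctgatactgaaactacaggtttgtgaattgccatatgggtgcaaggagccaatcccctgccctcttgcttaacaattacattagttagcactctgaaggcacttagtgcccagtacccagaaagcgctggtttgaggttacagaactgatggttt

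Only Tfcp2l1 +20.2 kb held a motif among these 8 windows. The match was to the paired motif of TFCP2L1 itself, on the minus strand. The same motif stood within 100 bases of the summit in 3.07% of all ESC-only regions, and in 2 of the 34 at the 4 genes, the other being Tbx3 -9.9 kb. The OCT octamer ATGCAAAT was found in 2.78% of ESC-only regions and at 1 of the 34, Tfcp2l1 +46.4 kb. The SOX motif ACAATGG occurred in 5.25% of ESC-only regions and in 3 of the 34, Prdm14 +32.1 kb, Prdm14 -15.9 kb and Nr5a2 +93.5 kb. The KLF motif CCCCACCC, in 6.37% of ESC-only regions, was held by Tbx3 +11.4 kb. None of the 34 held the ESRRB and NR5A2 motif CAAGGTCA, the T-box motif AGGTGTGA, the PRDM14 motif GGTCTCTAA or the STAT motif TTCCNGGAA, which stood in 2.99%, 1.17%, 0.117% and 0.693% of ESC-only regions. Both strands were searched. The fibroblast motifs AP-1 (TGANTCA) and TEAD (ACATTCC) were present in 1 and 2 of the 34, beside 6.11% and 4.07% of all ESC-only regions. Around the highest summits of the 8 MEF-only elements, which lacked a peak in ESCs, the AP-1 motif was found in 5. The summit was that of MEFs except at Tbx3 +15.3 kb, not among the 5, where it came from the Nanog day 5 library. Around the MEF summits of all 74605 MEF-only regions on the chromosomes searched, the share was 39.8%. The count of 5 was made after the data were seen. A match to these letters does not show binding.

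Sequencing depth is unknown. Libraries had 44126 to 125467 peaks, and their median pileup (the number of tags stacked at the summit) was 16 to 60 at 14217 regions that were open throughout the 20 libraries. A pileup divided by this median of its own library is given below as relative pileup. In the day 12 libraries the median was 24 with Nanog and 41 with NanogN70, and on day 7 it was 38 with both. The NanogN70 library of day 3 stood apart, with the highest median and with peaks at the promoters of all 15 genes of a T lymphocyte list and all 10 of a leukocyte list, where the other time course libraries had 4 to 8 and 3 to 6. Fibroblast promoters had peaks at 11 of 14 genes in that library and at 8 to 14 in the others. Its part in the results was not tested beyond the values given without day 3.

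ESC-only elements were the largest class at the 4 loci. Of the 86 elements, 34 were ESC-only, against 16.5% of all regions of the series, and 8 were MEF-only (a peak in MEFs and none in ESCs), against 22.2%. Another 6 were shared by MEFs and all ESC libraries (9.34% of all regions), 11 were seen in the time course alone (38.7%) and 27 fell in none of these classes, 25 of them with a peak in a single ESC library (13.3% of all regions fell in no class). ESC-only elements numbered 7 at Tfcp2l1, 6 at Tbx3, 12 at Prdm14 and 9 at Nr5a2, and 25 of the 34 were open in all 3 ESC libraries (73.5%, against 65.8% of all ESC-only regions). Pairs of ESC libraries shared 0.55 to 0.65 of the elements of the 4 loci that either had open (Jaccard index), beside 0.629 to 0.65 over all regions. There was 1 MEF library, so the difference between ESCs and MEFs has no test.

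**Figure D1:**
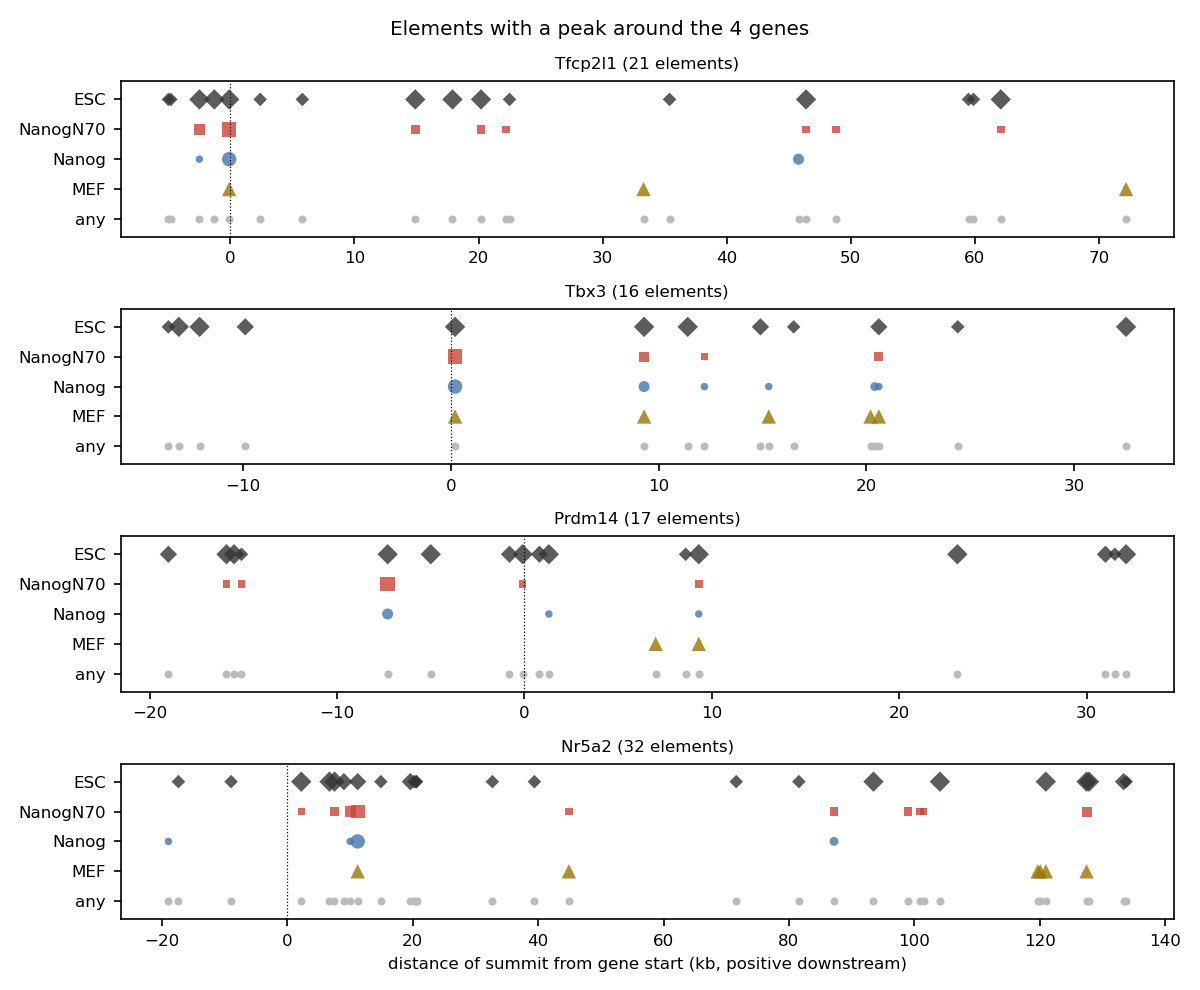
All elements around Tfcp2l1, Tbx3, Prdm14 and Nr5a2, by distance of the summit from the gene start in kb (horizontal axis). Rows of symbols mark elements with a peak in MEFs, on any Nanog+Oct4 day, on any NanogN70+Oct4 day or in ESCs, with larger symbols where more libraries of the row had the peak, and the grey row shows all elements. The ESC rows are the fullest at each gene, and the elements at 0 of Tfcp2l1 and Tbx3 appear in every row.

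In the time course, the 34 ESC-only elements opened with NanogN70 about as often as ESC-only regions of the whole series. On at least 1 day, 10 were open with NanogN70 (29.4%, against 30.8% of all ESC-only regions) and 3 with Nanog (8.82%, against 17.3%). Open with NanogN70 alone were 8 (16.6% of all ESC-only regions), with Nanog alone 1 (3.06%) and with both 2, while 23 had no peak in any time course library (67.6%, against 66.1%). Counting each element on each day, there were 23 openings with NanogN70 and 6 with Nanog among 272 chances, or 8.46% and 2.21%, and the shares over the whole series were 9.55% and 5.1%. Without day 3 the openings were 22 and 6. Without day 12 they were 15 and 4, and 7 elements were open on at least 1 day with NanogN70 and 2 with Nanog. On day 12, 8 of 34 were open with NanogN70 (23.5%, 95% Clopper-Pearson interval 10.7 to 41.2) and 2 with Nanog (5.88%, 0.72 to 19.7), beside 14.2% and 5.87% of all ESC-only regions. These intervals cover counting error only and treat elements read in the same library as independent.

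Of the 8 MEF-only elements, 6 had no peak in any time course library, where 44.4% of all MEF-only regions had none. The other pair were Tbx3 +15.3 kb, open on day 5 with Nanog (8 tags), and Nr5a2 +44.9 kb, open on day 0 with NanogN70 (5 tags). The 8 elements had 5 to 12 tags in MEFs, where the median over all peaks of that library was 10.

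The ESC-only elements were also read by the strength of their peak in ESCs. Of the 9 elements with a mean ESC peak score of 184 or more, the upper quartile of all ESC-only regions, 7 were open in a time course library, 6 on day 12 with NanogN70 and 1 on day 12 with Nanog. Above that score in the whole series, 52.4% were open in a time course library, 32.3% on day 12 with NanogN70 and 10.7% on day 12 with Nanog. The members did not follow the score step by step, since 0 of 8 were open in the next lower quartile (34.7% of its regions), 4 of 11 in the one after it (26.9%) and 0 of 6 in the lowest (21.6%). The median score in ESCs was 201 for the 11 elements open in the time course and 84.4 for the 23 that were not, against 138 and 87.2 over all ESC-only regions. Promoter elements made up 11 of the 34, and 3 of these opened with NanogN70 and 1 with Nanog (39.4% and 23.5% of all ESC-only promoter regions). Among the 23 distal elements, 7 opened with NanogN70 and 2 with Nanog, beside 29.6% and 16.4%.

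**Figure D2:**
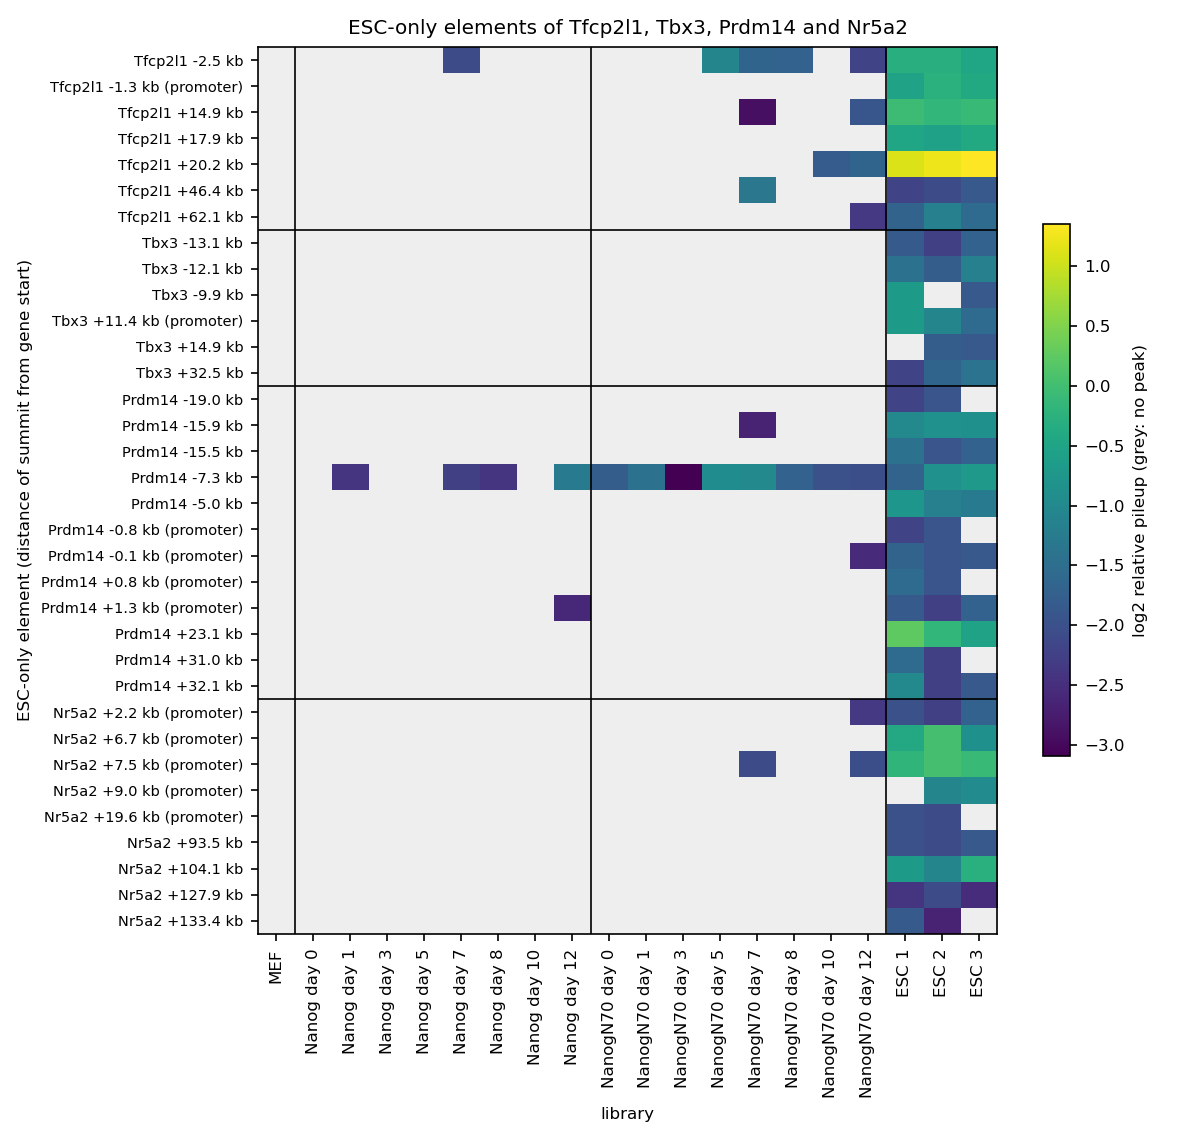
Log2 relative pileup of the 34 ESC-only elements (rows, by gene and by distance of the summit from the gene start) in the 20 libraries (columns), with grey where there was no peak. The NanogN70+Oct4 columns hold 23 openings and the Nanog+Oct4 columns 6, most of the first at Tfcp2l1 and at Prdm14 -7.3 kb, and the Tbx3 rows are empty outside ESCs.

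Of the 4 genes, Tfcp2l1 had the largest difference between the paths in the mean number of open ESC-only elements. This order depended on the settings, with 0.5 at Tfcp2l1 and 0.875 at Prdm14 for peaks with a score of at least 100, and 0.714 at both without day 12. Its promoter, Tfcp2l1 -0.1 kb (chr1:118627527-118628543, which spans the gene start), was open in all 20 libraries. The relative pileup was 0.308 in MEFs and 1.5, 1.5 and 1.79 in the ESC libraries. With Nanog it was 0.438, 0.375, 0.696, 0.679, 0.789, 0.875, 0.522 and 0.625 from day 0 to day 12. With NanogN70 the values were 0.292, 0.625, 0.2, 0.783, 0.947, 1.04, 0.607 and 1.05. All time course values lay below the ESC libraries, and all but those of days 0 and 3 with NanogN70 lay above MEFs. The paths did not separate at this promoter, with a mean daily difference of 0.00438 in log2 relative pileup (SE 0.296, 8 days, NanogN70 higher on 6; two-sided exact permutation test over the signs of the daily differences, p = 1). That mean rested on single days, since it was 0.26 without day 3 and -0.10 without day 12.

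The 7 ESC-only elements of Tfcp2l1 had 10 openings with NanogN70 and 1 with Nanog, a difference that did not pass the test given with the locus. These were 17.9% and 1.79% of the chances, beside 9.55% and 5.1% over the whole series. Without day 12 the openings were 6 and 1. Tfcp2l1 +20.2 kb (chr1:118647507-118648489), the intronic element with the TFCP2L1 motif, was the strongest ESC-only element of the 4 loci. Its mean ESC peak score of 1404.5 was at percentile 99.8 of all ESC-only regions. The pileups were 69, 90 and 74 tags in the ESC libraries, 8 on day 10 and 13 on day 12 with NanogN70, and no peak was called on any other day or on any Nanog day. In relative pileup, 0.286 and 0.317 on these 2 days compared with 2.36 ± 0.198 (SD, n = 3) in ESCs, so the late peaks were small beside those of ESCs.

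Tfcp2l1 +14.9 kb, also intronic, had pileups of 31, 34 and 27 in ESCs and was open with NanogN70 on day 7 (5 tags) and day 12 (11 tags), and on no Nanog day. Tfcp2l1 -2.5 kb, upstream of the gene, had 26, 31 and 21 in ESCs. It was the earliest of the 7 to open, with 11, 12, 8 and 9 tags on days 5, 7, 8 and 12 with NanogN70 and 9 tags on day 7 with Nanog. Tfcp2l1 +46.4 kb opened on day 7 (15 tags) and Tfcp2l1 +62.1 kb, beyond the gene end, on day 12 (8 tags), both with NanogN70 alone. Neither Tfcp2l1 -1.3 kb, a promoter element next to the gene start, nor Tfcp2l1 +17.9 kb had a peak in the time course, with 22 to 32 tags in the ESC libraries.

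Over the locus, 4 of the 7 ESC-only elements were open on day 12 with NanogN70 (57.1%, 95% Clopper-Pearson interval 18.4 to 90.1) and 0 of 7 with Nanog (interval 0 to 41). These intervals treat the 7 neighbouring elements, read in 1 library per path, as independent. The median pileup of the day 12 libraries at regions open throughout was 24 with Nanog and 41 with NanogN70. Among the 2025 genes with at least 7 ESC-only elements, 0.79% had a share as high as Tfcp2l1 on NanogN70 day 12, a comparison made after the value was seen. That set includes genes with more than 7 elements, for which such a share takes more open elements. At Tfcp2l1 the mean number of open ESC-only elements per day was 1.25 with NanogN70 and 0.125 with Nanog. NanogN70 was higher on 5 days and Nanog on none, and the difference of 1.12 did not pass the exact permutation test over 8 days (p = 0.0625). After Benjamini-Hochberg adjustment over 16772 genes, adjusted p was 1.

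An element of the opposite kind lay in an intron of Tfcp2l1. Tfcp2l1 +45.8 kb had no peak in MEFs, ESCs or NanogN70 libraries, and was open with Nanog on days 0, 1, 7 and 8, with pileups of 6, 6, 7 and 9. Of all regions, 0.574% were open on at least 4 Nanog days and no NanogN70 day, and 1.04% the other way round. No other element of the 4 loci was open on at least 4 days of one path and on no day of the other.

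**Figure D3:**
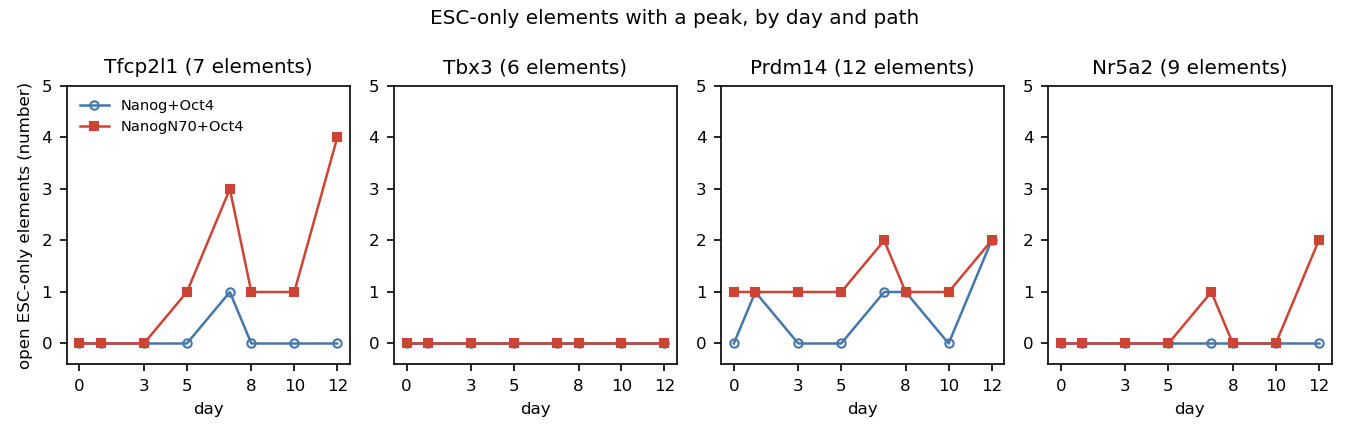
Number of ESC-only elements with a peak (vertical axis) by day (horizontal axis) at each gene, for Nanog+Oct4 (open circles) and NanogN70+Oct4 (filled squares), 1 library per point. Tfcp2l1 reached 4 of 7 on day 12 with NanogN70, Nr5a2 2 of 9 and Prdm14 2 of 12 in both paths, and Tbx3 stayed at 0.

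Tbx3 had an open promoter from the start, as Tfcp2l1 did, but none of its ESC-only elements opened. Its promoter, Tbx3 +0.2 kb (chr5:119669784-119671177), was open in all 20 libraries. The relative pileup was 2.38 in MEFs and 1.64 ± 0.139 (SD, n = 3) in ESCs. With Nanog it was 2.94, 2.69, 2.04, 2.14, 2.11, 1.56, 1.87 and 1.42 from day 0 to day 12. With NanogN70 it was 2.04, 2.31, 0.55, 1.48, 1.39, 1.08, 1 and 0.976. The Nanog library was the higher of the pair on every day, though the ranges of the paths overlapped, and the NanogN70 values from day 3 on were below all ESC libraries.

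The mean daily difference at the Tbx3 promoter was -0.72 in log2 relative pileup (SE 0.18, NanogN70 lower on 8 of 8 days), and p was 0.00781 in the two-sided exact permutation test, the smallest that the sign flips of 8 days can give. Over the 14918 regions open in all 16 time course libraries, this exact permutation test did not pass the Benjamini-Hochberg adjustment (adjusted p = 0.194). NanogN70 was lower on all 8 days in 2.49% of these regions and higher on all 8 in 1.53%, and the difference at Tbx3 stood at percentile 1.83. No region reached an adjusted p under 0.05, and 2447 had an unadjusted p under 0.05. With so few sign flips, 15.6% of the regions would have to stand at the smallest p for any of them to pass. Without day 3, whose NanogN70 value was the lowest, the difference was -0.55.

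The other promoter elements of Tbx3 belonged to later transcript starts. Tbx3 +9.3 kb, intronic and shared by MEFs (8 tags) and ESCs (26, 28 and 28), was open with Nanog on days 3, 5, 7 and 8 (7, 8, 5 and 5 tags) and with NanogN70 on days 7, 8 and 12 (6, 8 and 11 tags). Tbx3 +11.4 kb was ESC-only, with 20, 18 and 10 tags, and had no peak in the time course. The distal ESC-only elements with the highest scores were Tbx3 +32.5 kb (7, 12 and 11 tags), Tbx3 -12.1 kb (12, 11 and 13) and Tbx3 -13.1 kb (9, 8 and 9), the latter pair in introns of the antisense gene Tbx3os1. Their mean scores in ESCs lay between percentiles 41.7 and 52.3 of all ESC-only regions, near the middle. None of the 6 ESC-only elements opened on any day of either path. Of the 2898 genes with at least 6 ESC-only elements, 5.49% had none open in the time course. That set includes genes with more elements than Tbx3, and over all 16772 genes tested the share was 33.8%.

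**Figure D4:**
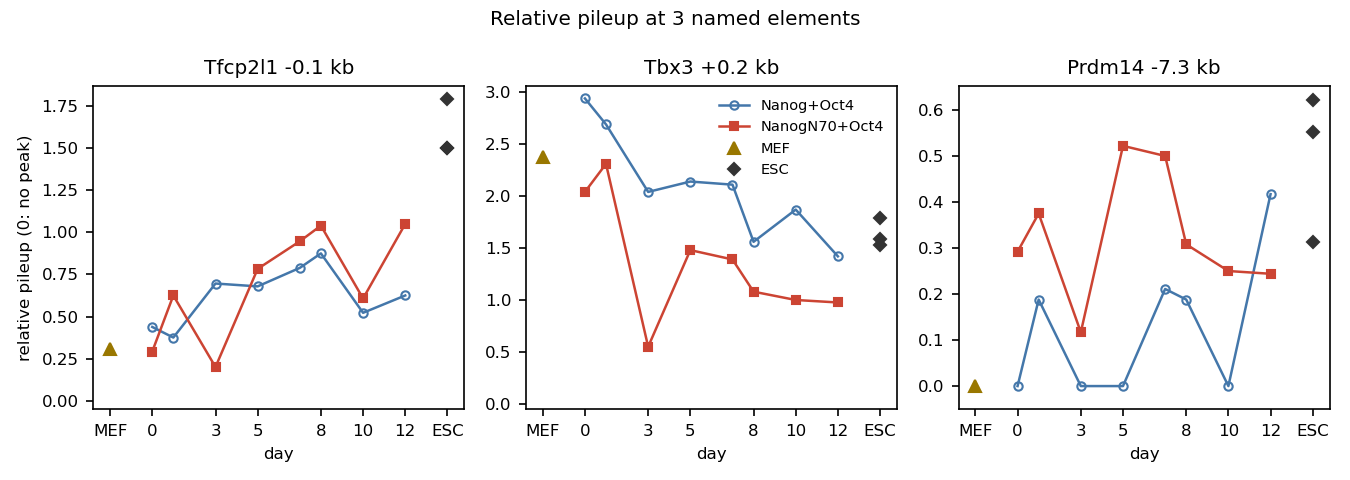
Relative pileup (vertical axis, 0 where no peak was called) by day at the Tfcp2l1 promoter, the Tbx3 promoter and Prdm14 -7.3 kb, with 1 library per point for Nanog+Oct4 (open circles) and NanogN70+Oct4 (filled squares), the MEF library as a triangle and the 3 ESC libraries as diamonds, 2 of which coincide at Tfcp2l1. The Nanog points lie above the NanogN70 points on all 8 days at Tbx3, while the paths cross at Tfcp2l1.

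With all annotated starts counted, Prdm14 was the gene with the fewest days of a promoter peak. At the gene start alone Nr5a2 was much the same, with 0 Nanog days and 1 NanogN70 day beside 1 and 1 at Prdm14. No promoter element of Prdm14 had a peak in MEFs, where 70.4% of the 21924 protein-coding genes had one. The promoter was open in all 3 ESC libraries and not in MEFs, as for 4.16% of genes. Prdm14 -0.1 kb had 10, 10 and 8 tags in ESCs and opened on day 12 with NanogN70 (7 tags). Prdm14 +1.3 kb, in an exon, had 9, 8 and 9 tags in ESCs and opened on day 12 with Nanog (4 tags). Thus each path had a promoter peak on day 12 alone, at different elements and with few tags. Prdm14 +0.8 kb and Prdm14 -0.8 kb were open in 2 of 3 ESC libraries (7 to 11 tags) and in no time course library.

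The most open ESC-only element of the 4 loci lay upstream of Prdm14. Prdm14 -7.3 kb (chr1:13134323-13134785, intergenic) had no peak in MEFs and 10, 21 and 18 tags in ESCs. With NanogN70 it was open on all 8 days, with 7, 6, 7, 12, 19, 8, 7 and 10 tags. With Nanog it was open on days 1, 7, 8 and 12, with 3, 8, 6 and 10 tags. In relative pileup NanogN70 was at 0.117 to 0.522 and Nanog, where open, at 0.188 to 0.417, against 0.312 to 0.621 in ESCs, and on day 12 the Nanog library was the higher. Of all ESC-only regions, 0.523% were open on all 8 NanogN70 days, 0.132% with at most 4 Nanog days besides, and 2.83% were open on at least 4 days of both paths.

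The stronger ESC elements near Prdm14 did not open in the same way. Prdm14 +23.1 kb, beyond the gene end, had the highest ESC score of the locus (38, 34 and 20 tags) and no peak in the time course. Prdm14 -15.9 kb lies in an intron of the neighbouring gene Ncoa2 (16, 21 and 16 tags in ESCs) and had a peak on day 7 with NanogN70 (6 tags). Over the locus, 1.25 ESC-only elements were open per NanogN70 day and 0.625 per Nanog day, higher with NanogN70 on 5 days and with Nanog on none (difference 0.625, exact permutation p = 0.0625). After Benjamini-Hochberg adjustment over 16772 genes, adjusted p was 1. This difference came mainly from the 4 days on which Prdm14 -7.3 kb was open with NanogN70 and not with Nanog.

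Nr5a2 has 6 annotated transcript starts, and the element nearest to the outermost one was Nr5a2 +2.2 kb, described with the other promoter elements here. Nr5a2 +11.2 kb (chr1:136948535-136949856), an exonic promoter element, had 14 tags in MEFs and 21 and 22 in 2 of the ESC libraries, with no peak in ESC replicate 3. It was open on all 8 Nanog days (5, 4, 6, 13, 14, 11, 7 and 10 tags) and on all NanogN70 days but day 1 (5, 7, 7, 16, 8, 8 and 11 tags). Nr5a2 +7.5 kb (chr1:136952559-136953416), an intronic promoter element with 28, 39 and 27 tags in ESCs, was open with NanogN70 on day 7 (9 tags) and day 12 (10 tags) and on no Nanog day. Nr5a2 +2.2 kb had 8, 8 and 9 tags in ESCs and opened on day 12 with NanogN70 (8 tags).

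Nr5a2 +10.0 kb behaved in another way. It had no peak in MEFs or ESCs and was open with NanogN70 on days 0, 1, 3 and 5 (5, 9, 10 and 14 tags), and with Nanog on day 5 (8 tags). After day 5 it had no peak in either path. Of the remaining promoter elements, Nr5a2 +6.7 kb (24, 39 and 16 tags in ESCs), +9.0 kb and +19.6 kb were ESC-only and not open in the time course, and 3 elements from +20.2 to +20.6 kb had a peak in 1 ESC library each. Among distal ESC-only elements, Nr5a2 +104.1 kb (20, 18 and 24 tags), Nr5a2 +93.5 kb (8, 9 and 8) and Nr5a2 +127.9 kb (6, 9 and 5) had the highest scores, and none had a peak in the time course.

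A few distal Nr5a2 elements were seen outside this class. Nr5a2 +127.5 kb, downstream of the gene and shared by MEFs (4 tags) and ESCs (8, 9 and 9), was open with NanogN70 on days 5, 7 and 8 (3, 11 and 9 tags) and on no Nanog day. Nr5a2 +87.2 kb, intronic, was open in both paths on days 5 and 7 alone. Nr5a2 +101.5 kb and Nr5a2 +100.9 kb had peaks in the NanogN70 day 3 library and in no other (15 and 23 tags), the library with peaks at all T lymphocyte and leukocyte promoters of the lists. Over the locus, 0.375 ESC-only elements were open per NanogN70 day and 0 per Nanog day, higher with NanogN70 on 2 days (exact permutation p = 0.5; Benjamini-Hochberg adjusted p = 1). The difference was 0.143 without day 12, and 0.141 after subtracting the daily difference at shared regions.

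Of the 4 loci, Tfcp2l1, Prdm14 and Nr5a2 had more open ESC-only elements with NanogN70 on average, as did 50.5% of the 16772 genes tested, of which 33.8% had no ESC-only element open at all. In the exact permutation test 0 of the 16772 genes had an adjusted p under 0.05, and at an unadjusted p under 0.05, 470 (2.8%) were higher with NanogN70 and 4 (0.0238%) with Nanog. In a list of 26 other genes of the naive network, 25 had an ESC-only element, with a higher mean in NanogN70 for 17, in Nanog for 5 and equal for 3. The median difference was 0.25 over this list, 0.5 over the 4 genes and 0.125 over all genes tested. These medians are differences in counts and were not scaled to the number of ESC-only elements, whose median was 5 over the list, 8 over the 4 genes and 3 over all genes. The largest differences were 1.62 at Dppa5a, a marker of naive ESCs (1.75 against 0.125 elements, p = 0.0156 in the exact permutation test), 1.38 at Esrrb, which encodes an orphan nuclear receptor of the network (1.88 against 0.5), and 1.25 at Tet2, which encodes an oxidase of 5-methylcytosine (1.62 against 0.375). The difference of 1.12 at Tfcp2l1 was equal to that at Sox2 (2.62 against 1.5). None of these genes passed the adjustment.

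Promoters of the naive list had a peak in MEFs at 17 of 26 genes and in all 3 ESC libraries at 25. They had a peak on all 8 days of both paths at 11 genes, on more NanogN70 days at 11 and on more Nanog days at 3. Tfcp2l1, Tbx3 and Nr5a2 belonged with the first of these groups and Prdm14 with the genes closed in MEFs, such as Zfp42, Dppa4, Dppa5a and Tcl1. For Nr5a2 this counted elements at all 6 annotated starts. At its gene start alone there was a peak on 0 Nanog days and 1 NanogN70 day. Of all genes, 54.3% had a promoter peak on all 8 days of both paths and 11.6% on more NanogN70 days. Of the 913 genes with a promoter open in all ESC libraries and not in MEFs, 64.5% had a promoter peak on at least 1 NanogN70 day and 46% on at least 1 Nanog day.

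The genes whose count of open ESC-only elements over the 16 time course libraries was most like that of Tfcp2l1 were Vangl1 (Pearson r = 0.942), Gm20716 (0.934) and Sh3gl3 (0.934), among 3941 genes with at least 5 ESC-only elements. For Prdm14 they were Egfem1 (0.808), Csnk2a2 (0.807) and Shank3 (0.804). Nr5a2 had the same pattern as Sash1, Ankrd24 and Slc4a1 (r = 1), which rests on 3 openings in 2 libraries. For Tbx3 the count was 0 throughout and no likeness could be computed. All genes were counted in the same libraries, which differ in day, number of peaks and median pileup, so these values are a description with no test.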

How the data were processed

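The study measured chromatin accessibility by ATAC-seq in bulk mouse cells. The authors trimmed reads with Trim Galore 0.6.4, aligned them to mm10 with Bowtie2 2.4.5, used SAMtools 1.16.1 to drop mitochondrial, repetitive and low-quality alignments, and called peaks in each library with MACS 1.4.2 (versions also per the submitters' processing notes). The deposited peak score is -10 times the log10 of the p-value, at least 50 in all files. The deposited summit signal is the pileup in tags, a whole number not scaled to depth, which is not given in the sources used here.

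Regions, classes and relative pileups were computed in Python 3.11.15 with numpy 2.4.6 and pandas 2.3.3. Sequences came from GRCm38, inside whose lengths all peaks of 21 chromosomes lay; 14 other sequence names (525 peaks) were not annotated. The 4 genes and all lists were chosen with earlier results of these data known. Paths were paired by day and compared by flipping the signs of the 8 daily differences in all ways, for each protein-coding gene with an ESC-only element within 20 kb and each region open on all days, with Benjamini-Hochberg adjustment over all of them. Days of 1 time course are not biological replicates, so p-values measure the spread between days. Named were all promoter elements, the 3 distal ESC-only elements of each gene with the highest ESC score, elements open on at least 4 days of 1 path and none of the other, distal ESC-only elements open on at least 4 days of both, and the 4 genes of the other lists with the largest difference. Other elements and genes given by name were chosen after their values were seen. The tests were checked on simulated data with independent, normally distributed differences, which are unlike the sparse counts of open elements. Alternatives changed the score minimum, number of peaks, window, class rules, promoter definition, days and scaling.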

Additional observations from a re-analysis of the deposited data

How the results depend on the processing

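Tfcp2l1, Prdm14 and Nr5a2 kept a higher mean number of open ESC-only elements with NanogN70 under all 13 alternatives, with differences of 0.5 to 1.29, 0.314 to 1 and 0.125 to 0.429 in that order. No adjusted p fell below 0.392, and the design cannot bring one under 0.05 without many genes at the smallest p. The lowest difference at Tfcp2l1 came with peaks of a score of at least 100. Without day 12, an alternative added for openings after the data were seen, the 23 openings with NanogN70 became 15; the mean difference was 0.714 at Tfcp2l1 and 0.143 at Nr5a2, and after subtracting the daily difference at shared regions it was 0.943, 0.314 and 0.141 at Tfcp2l1, Prdm14 and Nr5a2. At Tbx3 the difference of 0 became 0.75 with a 50 kb window, 0.25 with an equal number of top-scoring peaks in each library and -0.156 after that subtraction. Leaving out an ESC replicate gave 26 to 31 ESC-only elements in place of 34, and the number was 54 with a 50 kb window, 20 at a score of at least 100 and 12 with equal numbers of peaks.

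Promoter peaks near the threshold depended on the rule. For Prdm14 the single Nanog day became 0 within 1 kb, at a score of at least 100 and with equal numbers of peaks, and the single NanogN70 day became 0 at a score of at least 100. For Nr5a2 the 8 days became 4 with Nanog and 4 with NanogN70 at a score of at least 100, 6 with Nanog and 5 with NanogN70 at equal numbers of peaks, and 0 with Nanog and 1 with NanogN70 at the gene start alone. The difference of 0.00438 in log2 relative pileup at the Tfcp2l1 promoter was -0.102 without day 12 and -0.153 with the score in place of the pileup. At the Tbx3 promoter it was negative under all 5 alternatives, from -0.745 to -0.55, with adjusted p from 0.163 to 0.381. The number of genes with an adjusted p under 0.05 was 0 under the 5 alternatives for which it was counted (without day 0, 3 or 12, the score minimum and equal numbers of peaks), with 224 to 300 at an unadjusted p under 0.05 against 474. Depth is unknown, and a closed call says only that no peak passed the caller's threshold in that library.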

Other observations

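In a list of 16 genes of formative and primed pluripotency, 13 had an ESC-only element within 20 kb. The mean number open was higher with NanogN70 for 9, with Nanog for 1 and equal for 3. Of all 16772 genes tested it was higher with NanogN70 for 8463 (50.5%), with Nanog for 1521 and equal for 6788. The median difference was 0.25, with a median of 5 ESC-only elements per gene, beside 0.125 and 3 over all genes tested. The largest was at Lef1, a factor of WNT signaling, with 1.25 open elements per NanogN70 day and 0 per Nanog day (higher on 6 days, exact permutation p = 0.0312, Benjamini-Hochberg adjusted p = 1). At Pou3f1, a POU factor of the formative state, the Nanog path was higher, with 0.625 against 0.125. This rested on 1 ESC-only element and 4 days (exact permutation p = 0.125).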
